A study of Mus musculus with 10 samples.

Results

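This report describes chromatin accessibility around 8 genes that encode MYC proteins, their partner MAX and the proteins that compete with MYC for MAX. The genes are Myc, Mycn, Mycl, Max, Mxd1, Mxd4, Mxi1 and Mga, and all 8 were found in the GENCODE M21 annotation of the mm10 mouse genome. Every called interval that overlapped one of these genes or the 50 kb on either side was taken. Merged over the 5 deposited peak lists, these intervals formed 167 regions out of 211107 in the whole series. The Myc window held 17 of them and the windows of the other 7 genes held 150.

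MYC, MYCN and MYCL are transcription factors that bind DNA as dimers with MAX, preferentially at the E-box CACGTG, and drive growth and proliferation genes. The MXD proteins and MXI1 also dimerise with MAX, occupy the same sites and recruit SIN3 corepressor complexes, and MGA is a large MAX-binding repressor. In the prostate, gain of MYC is a frequent event in cancer.

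The cells were Myc-CaP, a prostate cancer line from a male FVB/NJ mouse, in which the human MYC transgene of the founder mouse is driven by a prostate-specific promoter. All groups share this transgene and are one line, so no group is free of MYC overexpression. The assay was ATAC-seq, in which a transposase inserts sequencing adapters into accessible DNA. Per the labels, 10 libraries formed 5 groups of 2, all taken at 48 h. Ctrl cells received no agent. Oxali cells received oxaliplatin at 2 µM, Cispl cells received cisplatin at 2 µM, and IFNγ cells received interferon-γ labelled as 1000 pg, an amount per ml in the study's methods. Oxali + IFNγ cells received both of the first and last agents at these amounts. The platinum compounds crosslink DNA, and T and NK cells secrete the cytokine. Reads were aligned to the mouse assembly, which holds no human sequence, so the transgene has no values of its own. Whether any of its reads align to the mouse Myc exons was not tested, and Myc is therefore described apart from the other 7 genes.

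The libraries of a group were pooled before peaks were called, so each group is 1 list, no SD can be given and no difference could be tested against replicates. All treated lists are compared with the same Ctrl list. A lower value can stem from fewer cells with the site open or from less open DNA per cell, which cannot be told apart here. The pileup, the number of reads, extended around their cut sites, over the summit of a region, is given for each list, and the level is the pileup divided by the genome background of the list. Where a region has several summits, the highest in each list was taken, so lists can be compared at different summits. Values at the same summit, the one within 50 bp of the highest Ctrl summit, are added where they change a statement. That background ran from 9.622 for IFNγ to 13.76 for Cispl, with Ctrl at 12.14, Oxali at 11.27 and Oxali + IFNγ at 12.91, and it follows sequencing depth. A region was gained when it had a q-value of at most 0.01 in the treated list and overlapped no Ctrl region, and lost in the reverse case. A region called in both lists was higher or lower when its levels differed by at least 1.5-fold. Ratios are levels over Ctrl, and their 95% intervals cover counting error only.

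The strongest start-site regions of the whole genome moved together. Over 6901 regions within 1 kb of a start site with a Ctrl pileup of at least 1000, the median ratio was 0.68 under Oxali, 0.588 under Cispl, 0.659 under IFNγ and 0.483 under Oxali + IFNγ. Over the 85377 regions called in all 5 lists it was 1.11, 1.05, 0.841 and 1.10, which are shifts of 0.15, 0.07, -0.25 and 0.14 on the log2 scale. At the same summit, found for 5822 to 6659 of the strong start-site regions, the medians were 0.675, 0.586, 0.659 and 0.481. Start-site values of the 8 genes are therefore given beside both backgrounds. Of the luminal prostate markers, Krt8, Foxa1 and Hoxb13 had a called start-site region in every list and Krt18 in Ctrl and Oxali only, whereas Epcam had one only under IFNγ, at a pileup of 24. Markers of other cell types were also called in Ctrl, 2 of 5 for leukocytes, 1 of 3 for endothelium and 2 of 3 for fibroblasts (Col1a1 and Pdgfra), while Cd3e, Itgam, Cdh5, Tek and Dcn had no start-site call in any list, and the part of other cells in the results was not tested.

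The sequences below are the 100 bp on either side of the highest summit of 6 regions that the results turn on, on the plus strand of mm10. Capitals mark exact matches to the E-box CACGTG, the AP-1 site TGANTCA, the cAMP response element (CRE) TGACGTCA or the GC box GGGCGG, searched on both strands. The first 3 were called with platinum drugs and not in Ctrl, the second of them also under IFNγ, and all 3 hold an AP-1 match, as do 21% of all regions. The gained regions described below at -36.7 kb of Mycl and in Trit1 hold none. Nor do those at -7.31 and -18.5 kb of Max, -14.6 kb of Mxd1, -32.3 kb of Mga and 7.99 kb of Mxi1. The next is the region downstream of Mxd1 that was highest under Cispl. The last 2 hold an E-box, at the start site of Max and in the first part of Mga.
Mycn upstream, chr12:12981316-12981516: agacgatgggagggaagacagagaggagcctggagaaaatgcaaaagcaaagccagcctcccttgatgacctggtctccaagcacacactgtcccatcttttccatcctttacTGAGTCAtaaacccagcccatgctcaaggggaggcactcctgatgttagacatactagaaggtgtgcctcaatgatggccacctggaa
Myc downstream, chr15:61991903-61992103: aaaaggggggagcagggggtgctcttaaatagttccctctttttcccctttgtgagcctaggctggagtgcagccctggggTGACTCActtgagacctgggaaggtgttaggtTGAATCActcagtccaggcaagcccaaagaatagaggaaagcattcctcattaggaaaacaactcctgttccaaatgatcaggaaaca
Myc downstream, chr15:61992504-61992704: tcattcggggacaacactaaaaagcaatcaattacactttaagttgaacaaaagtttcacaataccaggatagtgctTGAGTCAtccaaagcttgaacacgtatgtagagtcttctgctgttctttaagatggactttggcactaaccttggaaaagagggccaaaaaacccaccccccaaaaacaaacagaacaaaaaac
Mxd1 downstream, chr6:86640843-86641043: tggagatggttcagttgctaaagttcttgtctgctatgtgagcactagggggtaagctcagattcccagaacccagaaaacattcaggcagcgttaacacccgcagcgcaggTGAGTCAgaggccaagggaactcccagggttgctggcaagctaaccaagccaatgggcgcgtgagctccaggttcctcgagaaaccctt
Max start site, chr12:76962237-76962437: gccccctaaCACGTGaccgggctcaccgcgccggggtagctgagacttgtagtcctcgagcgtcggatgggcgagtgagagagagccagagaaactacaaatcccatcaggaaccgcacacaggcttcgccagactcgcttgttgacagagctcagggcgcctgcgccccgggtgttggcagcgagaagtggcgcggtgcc
Mga intron, chr2:119898373-119898573: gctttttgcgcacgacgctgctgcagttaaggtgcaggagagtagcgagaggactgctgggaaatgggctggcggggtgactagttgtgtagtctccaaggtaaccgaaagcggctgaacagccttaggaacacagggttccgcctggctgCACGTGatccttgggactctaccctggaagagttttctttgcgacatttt

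The endogenous Myc gene (chr15:61985391-61990374, plus strand) lay in open chromatin in every list. Its start-site region, chr15:61984283-61985926, had pileups of 1461 in Ctrl, 1262 under Oxali, 1220 under Cispl, 909 under IFNγ and 1220 under Oxali + IFNγ. Ctrl was highest, and with depth taken into account the ratios were 0.93 (0.862 to 1.00), 0.737 (0.682 to 0.795), 0.785 (0.722 to 0.853) and 0.785 (0.727 to 0.848) in the same order. Scaled to the strong start-site regions of the genome, they turned to 1.37, 1.25, 1.19 and 1.63. These values compare each list at its own highest summit, which lay at -186 bp from the start site in Ctrl and -193 bp under Cispl, but at -897, -896 and -906 bp under Oxali, IFNγ and Oxali + IFNγ.

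At the summit next to the Myc start site, pileups were 1461 in Ctrl, 1207 under Oxali, 1220 under Cispl, 867 under IFNγ and 957 under Oxali + IFNγ. The ratios were 0.89 (0.824 to 0.961), 0.737 (0.682 to 0.795), 0.749 (0.688 to 0.815) and 0.616 (0.567 to 0.669), so Oxali + IFNγ was lower by over 1.5-fold and the other lists were not. At the upstream summit, at -903 bp in Ctrl, pileups were 1207, 1262, 1130, 909 and 1220 in the order Ctrl, Oxali, Cispl, IFNγ and Oxali + IFNγ, with ratios of 1.13 (1.04 to 1.22), 0.826 (0.761 to 0.896), 0.95 (0.871 to 1.04) and 0.951 (0.877 to 1.03). In all 4 lists the ratio was lower next to the start site than at the upstream summit. Compared at the same summit, the site next to the start fell less than most strong start-site regions, of which 94.6% had a lower ratio under Oxali, 93.5% under Cispl, 79.5% under IFNγ and 84.0% under Oxali + IFNγ. Scaled to those regions, its ratios were 1.31, 1.25, 1.14 and 1.28.

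A second strong region, chr15:61986925-61988120, covered most of the second exon, which holds much of the coding sequence. It had pileups of 1454 in Ctrl, 1164 under Oxali, 976 under Cispl, 951 under IFNγ and 1151 under Oxali + IFNγ. These maxima again lay at different summits, within the second exon at 2304 and 2305 bp after the start site in Ctrl and under IFNγ and before that exon of most transcripts, at 1779, 1758 and 1771 bp, under Oxali, Cispl and Oxali + IFNγ. At the summit within the exon, pileups were 1454, 985, 969, 951 and 908 in the order above. The ratios were 0.73 (0.672 to 0.792) under Oxali, 0.588 (0.541 to 0.638) under Cispl, 0.825 (0.76 to 0.896) under IFNγ and 0.587 (0.54 to 0.639) under Oxali + IFNγ, so both Cispl and Oxali + IFNγ were lower by over 1.5-fold. At the summit before the exon, pileups were 1244, 1164, 976, 902 and 1151, and no ratio reached 1.5-fold, the lowest being 0.692 (0.636 to 0.753) under Cispl. The last exon (chr15:61989346-61990374) held no called region in any list. The pileup needed for a call there was not measured. At the local background of the region over the second exon it would be 317 in Ctrl, 299 under Oxali, 292 under Cispl, 233 under IFNγ and 288 under Oxali + IFNγ, and the background was lower further downstream.

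Upstream of Myc, the region at -1.88 kb from the start site (chr15:61983339-61983646) had the lowest ratio on the depth scale among regions of the window called in both lists. It had pileups of 763 in Ctrl, 472 under Oxali, 441 under Cispl, 405 under IFNγ and 482 under Oxali + IFNγ, and Cispl gave the lowest ratio, 0.51 (0.452 to 0.574). The ratios under Oxali and IFNγ were 0.666 (0.593 to 0.748) and 0.67 (0.592 to 0.756), one on each side of the 1.5-fold limit. Scaled to the strong start-site regions, the ratio under Cispl was 0.868 here and 1.0 at the summit within the second exon.

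Downstream of the gene a group of regions went the other way. The region 7.93 kb after the start site (chr15:61992936-61993526) had pileups of 71 in Ctrl, 224 under Oxali, 130 under Cispl, 55 under IFNγ and 263 under Oxali + IFNγ. The lists with oxaliplatin stood well above the others, with ratios of 3.4 (2.59 to 4.5) and 3.48 (2.67 to 4.6), against 1.61 (1.2 to 2.19) under Cispl and 0.977 (0.675 to 1.41) under IFNγ. The region 7.21 kb after the start site, printed above, had pileups of 208 under Oxali, 133 under Cispl and 183 under Oxali + IFNγ and was not called in Ctrl or under IFNγ, where about 101 and 82 would have been needed at the local background of the other lists. The region at 6.61 kb was called in all 4 treated lists, at 225, 240, 211 and 280, and not in Ctrl, where about 156 would have been needed. These pileups therefore lay above the Ctrl limit, although the limit is an estimate because Ctrl has no call there.

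Further downstream, towards Pvt1, a long noncoding RNA gene, the strongest distal region lay 32.0 kb from the start site (chr15:62017007-62018335). Its pileups were 1184 in Ctrl, 1007 under Oxali, 704 under Cispl, 720 under IFNγ and 932 under Oxali + IFNγ, and Cispl alone passed the 1.5-fold limit at 0.524 (0.477 to 0.576), or 0.892 when scaled to the strong start-site regions. The weaker region beside it, at 31.4 kb, was called at 169 in Ctrl and 111 under IFNγ and in no platinum list. The start-site region of Pvt1, which holds a CRE match, had pileups of 655, 572, 600, 367 and 459 in the order Ctrl, Oxali, Cispl, IFNγ and Oxali + IFNγ, and did not pass the limit under Oxali, Cispl or IFNγ, whereas Oxali + IFNγ lay at 0.659 (0.584 to 0.744). Scaled to the strong start-site regions, that ratio was 1.36, which turned its direction. A weaker region at the same start site, at 53.8 kb in the intron, went the other way with oxaliplatin, with pileups of 192, 269, 240, 113 and 295 and ratios of 1.51 (1.25 to 1.83) under Oxali and 1.45 (1.2 to 1.74) under Oxali + IFNγ. On the scale of the median ratio over regions of all lists, these were 1.36 and 1.31, so the call under Oxali was lost.

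**Figure D1:**
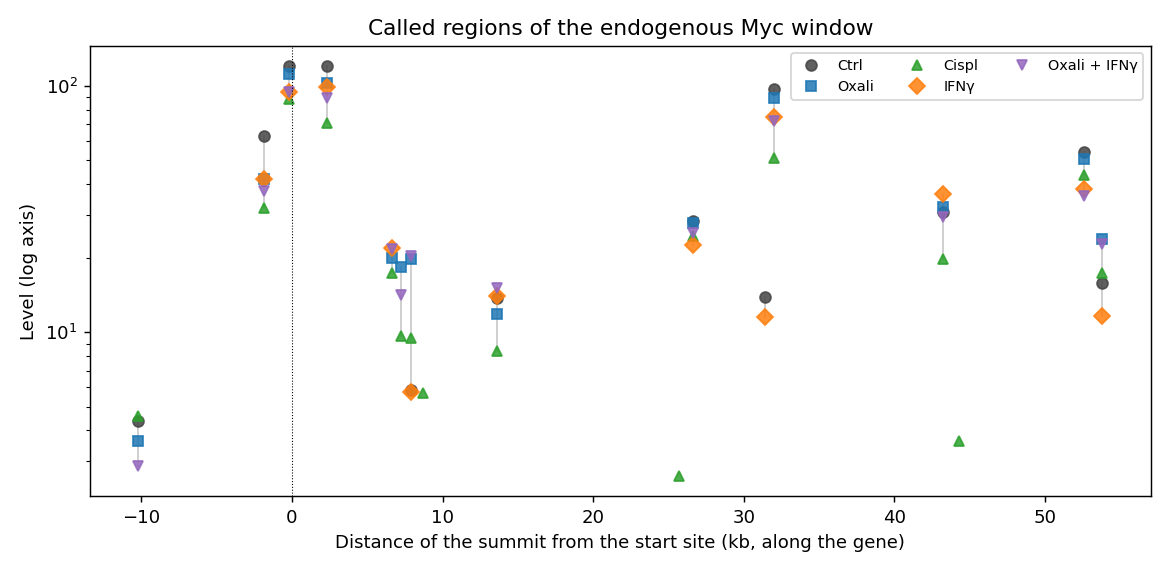
Level of each called region in the Myc window (pileup over genome background, log axis) against the distance of its summit from the Myc start site in kb, with 1 point per list and a grey line joining the lists; there are no error bars because each list is 1 pooled set. Ctrl is at or near the top at the strong regions at the start site, in the second exon and at 32.0 kb, and the Oxali and Oxali + IFNγ points stand above Ctrl at 7.93 kb.

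Counted over the Myc window at a limit of 1.5-fold and at the highest summits, cisplatin gave the most lower regions. In the Cispl list 5 of 11 regions were lower, against 12% of all regions of the series, and 1 was higher, against 25.5%. In the Oxali list 1 of 11 was lower (7.68% of all regions) and 2 were higher (29.2%). In the IFNγ list none of the 11 passed the limit in either direction (18.4% of all regions were lower and 4.26% higher). In the Oxali + IFNγ list 3 were lower (14.3%) and 1 was higher (30.4%). Cispl thus stood above the genome's share of lower regions and the other lists nearer to it or below it, with 11 regions in each count. At the same summit, Cispl and Oxali + IFNγ each had 5 lower regions, and at a fold of 2 neither had any. The share over all regions is not given for either rule, so these counts cannot be set against the genome.

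Gained regions of the Myc window numbered 2 of 13 in the Oxali list (32.5% of all regions), 5 of 16 in the Cispl list (37.3%), 2 of 14 in the IFNγ list (12.9%) and 2 of 13 in the Oxali + IFNγ list (38.4%). Lost regions numbered 1 of 13 in each platinum list (9.11, 5.9 and 7.59% of all regions for Oxali, Cispl and Oxali + IFNγ) and 2 of 13 in the IFNγ list (15.8%). Scaled by the median ratio over regions of all lists, Cispl still had 5 lower Myc regions of 11 (14.5% of all regions) and 1 higher (22.6%). Scaled to the strong start-site regions, no Myc region was lower in any list (0.341, 0.138, 0.878 and 0.408% of all regions under Oxali, Cispl, IFNγ and Oxali + IFNγ). On that scale 3 of 11 were higher under Oxali (59.7% of all regions), 3 under Cispl (69.5%), 2 under IFNγ (31.2%) and 8 under Oxali + IFNγ (81.9%). The excess of lower regions under Cispl and Oxali + IFNγ was thus gone, and in every list the share of higher regions lay below that of all regions.

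Mycn, the neuronal paralogue of Myc (chr12:12936093-12941914, minus strand), had no called region within 1 kb of its start site in any list. In Ctrl and IFNγ the whole 106 kb window was empty, where a pileup of 21 and 18 would have sufficed at the genome background. The platinum lists had regions there, 5 under Oxali, 3 under Cispl and 7 under Oxali + IFNγ, all of them intergenic. Of these, 5, 2 and 6 passed the q-value limit for gained regions. With no Ctrl region in the window, each of them counted as gained by the rule. The counts therefore cannot be set against the shares over all regions, 32.5, 37.3 and 38.4%.

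The strongest Mycn region, at -39.5 kb from the start site (chr12:12981083-12981567), had pileups of 96 under Oxali, 70 under Cispl and 142 under Oxali + IFNγ. Its level under Cispl was 0.597 (0.432 to 0.821) of that under Oxali. The region at -41.3 kb was called at 44 under Oxali and 54 under Oxali + IFNγ only, and that at -35.4 kb at 46 and 43 in the same lists. These 3 hold an AP-1 match within 100 bp of the summit, as do 21% of all regions, and the other 5 hold none. The remaining 5 were weak, with pileups of 22 to 41, and 2 of the 8 lay mostly in repeats masked in the RefSeq assembly.

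Mycl (chr4:122995652-123002485, plus strand), a paralogue first described in lung cancer, had an open but modest start site. Its start-site region, chr4:122995345-122995791, had pileups of 106 in Ctrl, 98 under Oxali, 127 under Cispl, 56 under IFNγ and 102 under Oxali + IFNγ. Only IFNγ stood apart, at a ratio of 0.667 (0.473 to 0.93), and the other intervals all held 1. Scaled to the strong start-site regions, the IFNγ ratio was 1.01. Another start-site region in the intron had pileups of 46, 40, 67, 34 and 34, with all 4 intervals holding 1.

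The region of the Mycl window with the highest ratio lay upstream, at -23.0 kb (chr4:122972142-122973233). It had pileups of 30 in Ctrl, 75 under Oxali, 98 under Cispl, 26 under IFNγ and 98 under Oxali + IFNγ. The 3 platinum lists lay above the other lists, with ratios of 2.69 (1.74 to 4.26), 2.88 (1.9 to 4.49) and 3.07 (2.02 to 4.79). Masked repeat made up 71.1% of the sequence around its summit. At 55.3 kb downstream, in an intron of Trit1, pileups were 67, 63, 125, 23 and 69 in the same order, with the lowest ratio of the window under IFNγ, 0.433 (0.257 to 0.705). The region 18.5 kb downstream was called at 55 in Ctrl, 58 under Oxali, 98 under Cispl and 103 under Oxali + IFNγ and was lost under IFNγ. Gained regions included one at -36.7 kb, near the Mfsd2a start site, called only under Cispl at 226, and one in Trit1 at 49 under Cispl and 33 under Oxali + IFNγ.

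Max (chr12:76937269-76962201, minus strand), the obligate partner, had one of the strongest start sites of the set. Its region, chr12:76961490-76962966, had pileups of 2926 in Ctrl, 1834 under Oxali, 1982 under Cispl, 1767 under IFNγ and 1576 under Oxali + IFNγ. All treated lists lay below Ctrl, and Cispl and Oxali + IFNγ by over 1.5-fold, with ratios of 0.675 (0.636 to 0.716), 0.597 (0.564 to 0.633), 0.762 (0.718 to 0.809) and 0.507 (0.476 to 0.539). Among the strong start-site regions these ratios lay near the middle with the platinum drugs. The share of such regions below Max was 48.3% under Oxali, 54.9% under Cispl, 82.5% under IFNγ and 57.9% under Oxali + IFNγ. Scaled to those regions, the ratios were 0.993 under Oxali, 1.02 under Cispl, 1.16 under IFNγ and 1.05 under Oxali + IFNγ. They lay near 1 in the platinum lists, and the direction turned, if slightly, in all lists but Oxali.

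On the depth scale, the largest ratio among regions called in both lists in any of the 8 windows was in the Max window and lay 41.6 kb downstream, in an untranslated exon of Fntb, which encodes a farnesyltransferase subunit. This region, chr12:76919782-76921321, had pileups of 106 in Ctrl, 422 under Oxali, 407 under Cispl, 47 under IFNγ and 379 under Oxali + IFNγ. The 3 platinum lists lay far above Ctrl, with ratios of 4.29 (3.46 to 5.36), 3.39 (2.73 to 4.23) and 3.36 (2.7 to 4.21), and IFNγ lay below it at 0.559 (0.388 to 0.796). The level under Cispl was 0.79 (0.688 to 0.907) of that under Oxali. Regions gained upstream of Max were weak, the strongest being 64 at -7.31 kb and 80 at -18.5 kb, both under Cispl. The region at -47.2 kb, with a pileup of 51 in Ctrl, was lost under IFNγ and was 102 under Cispl, a ratio of 1.76 (1.25 to 2.52).

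Mxd1 (chr6:86647042-86669161, minus strand), which rises as cells differentiate, had the lowest ratios among the strongest start-site regions of the genes, 1 region per gene. Its region, chr6:86668661-86669919, had pileups of 2779 in Ctrl, 1347 under Oxali, 1453 under Cispl, 1227 under IFNγ and 1050 under Oxali + IFNγ. Every treated list was lower by over 1.5-fold, with ratios of 0.522 (0.489 to 0.557), 0.461 (0.433 to 0.492), 0.557 (0.52 to 0.596) and 0.355 (0.331 to 0.382). The fall was steeper than at most strong start-site regions, of which 2.97% had a lower ratio under Oxali, 4.52% under Cispl, 18.0% under IFNγ and 9.32% under Oxali + IFNγ. It kept its direction when scaled to those regions, at 0.768, 0.785, 0.845 and 0.736.

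Myc and Mxd1 thus stood on opposite sides of the strong start sites. A distal Mxd1 region went against the start site. The region 28.2 kb downstream of it and beyond the gene's end (chr6:86640678-86641290, printed above) had pileups of 86 in Ctrl, 96 under Oxali, 224 under Cispl, 77 under IFNγ and 151 under Oxali + IFNγ. Cispl was highest, at 2.3 (1.78 to 2.98) times Ctrl and 1.91 (1.5 to 2.45) times Oxali. Regions at -18.0 kb and -14.6 kb were gained. The first had pileups of 88 under Oxali, 97 under Cispl and 82 under Oxali + IFNγ, and the second, at the Snrnp27 start site, 103 under Cispl and 75 under Oxali + IFNγ. A weak region in the untranslated part of Mxd1, at 37 in Ctrl, was lost in all treated lists, and another in its intron was called only under Oxali + IFNγ, at 37.

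Mxd4 (chr5:34173883-34187720, minus strand), a close relative of Mxd1, had the strongest start site of the 8. Its region, chr5:34186873-34188373, had pileups of 3760 in Ctrl, 2151 under Oxali, 2224 under Cispl, 2296 under IFNγ and 1902 under Oxali + IFNγ. Ctrl was again highest, and the ratios were 0.616 (0.584 to 0.65), 0.522 (0.495 to 0.55), 0.77 (0.731 to 0.812) and 0.476 (0.45 to 0.503). Among strong start-site regions 23.7%, 20.2%, 84.4% and 47.4% had a lower ratio in the same order, and scaled to them the ratios were 0.906, 0.888, 1.17 and 0.985, turning direction under IFNγ. No summit lay within 50 bp of the Ctrl summit under Cispl or IFNγ. Its flanks carried calls in single lists, at 323 under Oxali + IFNγ in the intron 1.17 kb from the start and at 428 under Cispl at -3.49 kb, both where the local background was 13.9 to 15.4 times that of the genome. In a coding exon 10.1 kb downstream, pileups were 50, 53, 77, 78 and 83, and the ratio under IFNγ was 1.97 (1.36 to 2.87). A region in a coding exon of Poln, at 46 in Ctrl, was lost under IFNγ.

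Mxi1 (chr19:53310518-53375810, plus strand) has several annotated start sites, and 7 regions lay at them. The region at the first had pileups of 807 in Ctrl, 640 under Oxali, 705 under Cispl, 473 under IFNγ and 576 under Oxali + IFNγ, with ratios from 0.854 (0.769 to 0.949) under Oxali down to 0.671 (0.602 to 0.748) under Oxali + IFNγ, and all 4 turned above 1, from 1.12 to 1.39, when scaled to the strong start-site regions. The region 3.75 kb into the gene (chr19:53313688-53314483), which holds a CRE match, fell further and kept its direction on that scale. Its pileups were 774, 370, 433, 332 and 339, at ratios of 0.515 (0.454 to 0.583), 0.493 (0.438 to 0.556), 0.541 (0.474 to 0.616) and 0.412 (0.362 to 0.469). In this gene, neighbouring start sites thus differed in how far they fell.

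An internal Mxi1 start at 17.7 kb moved upward with oxaliplatin. Its pileups were 221 in Ctrl, 358 under Oxali, 229 under Cispl, 154 under IFNγ and 325 under Oxali + IFNγ. Oxali stood at 1.74 (1.47 to 2.07), and Cispl was 0.524 (0.442 to 0.62) of Oxali. The neighbouring start at 19.1 kb had pileups of 697, 661, 751, 356 and 497, and only IFNγ passed the limit, at 0.644 (0.566 to 0.733), against 0.671 under Oxali + IFNγ. On the scale of the median ratio over regions of all lists, IFNγ was at 0.766 and Oxali + IFNγ at 0.609, so the call moved from one list to the other, and scaled to the strong start-site regions they were at 0.978 and 1.39. The regions at 1.62 kb and 7.99 kb were called in the platinum lists only, at 162, 156 and 171 and at 92, 121 and 109 under Oxali, Cispl and Oxali + IFNγ. Of the other start-site regions, that at 2.56 kb had pileups of 423, 347, 329, 263 and 322, and that at 59.4 kb had 61, 47, 71, 51 and 76, all 8 ratios lying within the 1.5-fold limits. Compared at the same summit, however, the region at 2.56 kb was lower under Cispl, at 301 and a ratio of 0.628 (0.54 to 0.729), and under Oxali + IFNγ, at 221 and 0.491 (0.416 to 0.58).

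Downstream of Mxi1, the region 93.8 kb from the first start had pileups of 35 in Ctrl, 87 under Oxali, 49 under Cispl, 23 under IFNγ and 86 under Oxali + IFNγ. The lists with oxaliplatin were highest, at 2.68 (1.79 to 4.08) and 2.31 (1.54 to 3.53), and Cispl was 0.461 (0.318 to 0.662) of Oxali. Here, as at the internal start and downstream of Myc, the interval of Cispl over Oxali lay below 1. The lowest ratio of the window, 0.371 (0.333 to 0.413) under Oxali + IFNγ, was at the start site of the neighbour Smndc1, a splicing factor gene, with pileups of 1192, 638, 729, 579 and 470, and at the same summit it was 0.248 (0.218 to 0.281). A region at 112 kb was gained at 79, 76 and 119 under Oxali, Cispl and Oxali + IFNγ, and a weak region at 90.0 kb, at 32 in Ctrl, was lost in every treated list.

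Mga (chr2:119897228-119969581, plus strand) had a weak start site next to an intronic region that moved otherwise. The start-site region, chr2:119896788-119897755, had pileups of 204 in Ctrl, 120 under Oxali, 129 under Cispl, 105 under IFNγ and 109 under Oxali + IFNγ. All treated lists were lower by over 1.5-fold, at 0.633 (0.501 to 0.798), 0.558 (0.444 to 0.699), 0.649 (0.508 to 0.826) and 0.503 (0.395 to 0.637), although scaled to the strong start-site regions they were 0.932 to 1.04, turning direction under Oxali + IFNγ. On the scale of the median ratio over regions of all lists, IFNγ was at 0.772 and no longer passed the limit, whereas the platinum lists still did. The intronic region 1.25 kb into the gene (chr2:119898113-119898846), with the E-box printed above, had pileups of 120, 183, 192, 56 and 204. It lay above Ctrl with platinum drugs, by over 1.5-fold in the lists with oxaliplatin, at 1.64 (1.3 to 2.09), 1.41 (1.12 to 1.79) and 1.6 (1.27 to 2.02) under Oxali, Cispl and Oxali + IFNγ, and lower under IFNγ at 0.589 (0.421 to 0.815). Scaled by the median ratio over regions of all lists, the ratios were 1.48 under Oxali, 1.35 under Cispl, 0.7 under IFNγ and 1.45 under Oxali + IFNγ, so none passed the limit. On the depth scale, the platinum ratios thus lay below 1 at the first region and above 1 at the intronic one, which also lies within 1 kb of an annotated Mga start. The neighbouring Mapkbp1 start site, at 1512 in Ctrl and 636 under Oxali + IFNγ, had the lowest ratio of the window at 0.396 (0.36 to 0.434). A region at -32.3 kb was gained with the platinum drugs, at 55, 41 and 40.

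IFNγ gave its highest share of lower regions in the Mga window, 6 of 8, against 18.4% of all regions, and none there was higher, against 4.26%. The list is the shallowest and its levels were low across the genome, and when levels were scaled by the median ratio over the regions of all lists 2 of the 8 were lower (6.22% of all regions), and 0 when scaled to the strong start-site regions (0.878%). The windows of Mycn, Max and Mga are plotted together as examples in which a platinum drug and IFNγ gave different calls, which also happened in other windows.

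**Figure D2:**
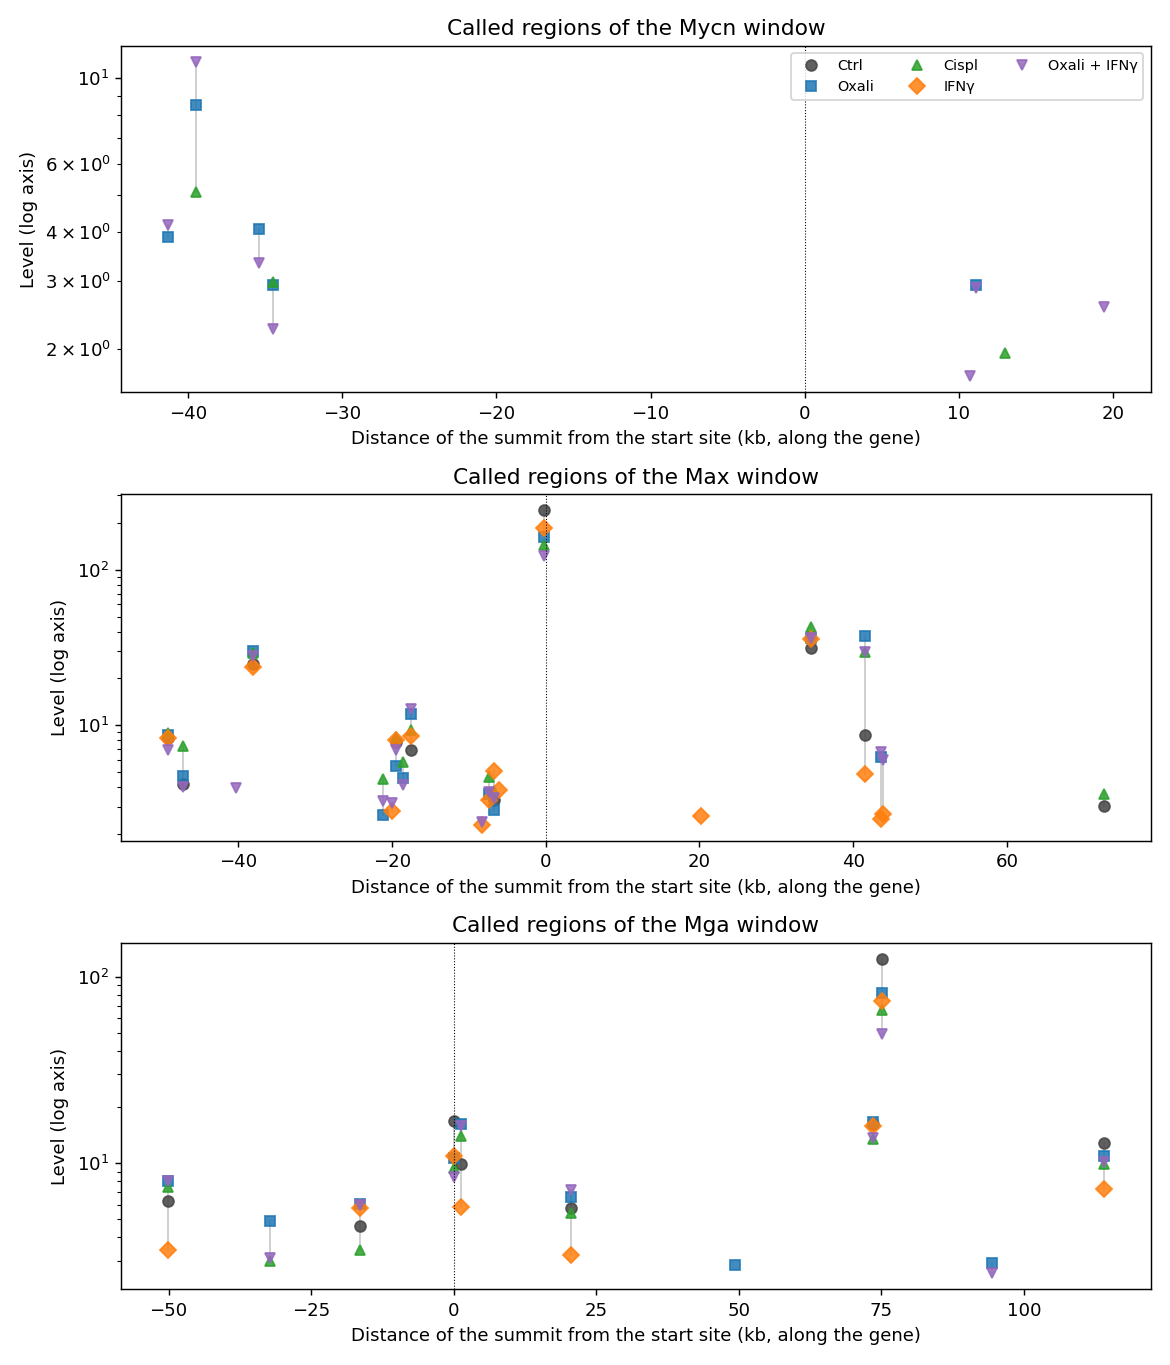
Level of each called region (pileup over genome background, log axis) in the windows of Mycn, Max and Mga against the distance of its summit from the start site in kb along the gene, with 1 point per list and no error bars, since each list is 1 pooled set. The Mycn window has no Ctrl and no IFNγ point, the Max region at 41.6 kb stands highest under Oxali, and the Mga region at 1.25 kb has its highest points in the platinum lists and its lowest under IFNγ.

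Across the 8 start sites, levels in Ctrl ranked Mxd4, Max, Mxd1, Myc, Mxi1, Mga and Mycl from high to low, with Mycn uncalled. The neighbours Max and Mxd1 differed little, at pileups of 2926 and 2779, and with 1 pooled list no spread can be set against their order.

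**Figure D3:**
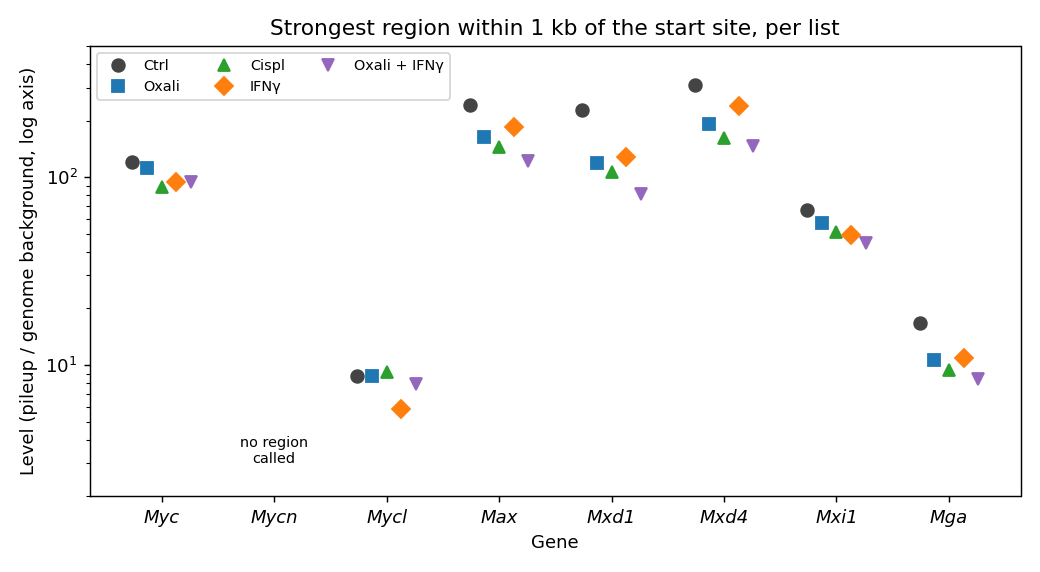
Level of the region with the highest level in any list among those within 1 kb of an annotated start site of each gene (pileup over genome background, log axis), with 1 point per gene and list and no error bars because each list is 1 pooled set. Ctrl is the highest point for Myc, Max, Mxd1, Mxd4, Mxi1 and Mga, Cispl is the highest for Mycl, and Mycn has no called region in any list.

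Counts over the windows of the 7 genes without Myc were read against all regions of the series. Gained regions made up 29 of 115 under Oxali (25.2%, against 32.5% of all regions), 36 of 116 under Cispl (31.0%, against 37.3%), 14 of 89 under IFNγ (15.7%, against 12.9%) and 48 of 128 under Oxali + IFNγ (37.5%, against 38.4%). Lost regions made up 3 of 84 under Oxali (3.57%, against 9.11%), 3 of 84 under Cispl (3.57%, against 5.9%), 10 of 84 under IFNγ (11.9%, against 15.8%) and 6 of 84 under Oxali + IFNγ (7.14%, against 7.59%). Gains thus outnumbered losses in every list, and the shares lay near or below those of the genome except for gains under IFNγ.

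The shares of higher regions lay below those of all regions in the 3 platinum lists, without a test. Higher regions made up 10 of 78 regions under Oxali (12.8%, against 29.2%), 11 of 78 under Cispl (14.1%, against 25.5%), 3 of 70 under IFNγ (4.29%, against 4.26%) and 14 of 75 under Oxali + IFNγ (18.7%, against 30.4%). Lower regions made up 8 of 78 under Oxali (10.3%, against 7.68%), 16 of 78 under Cispl (20.5%, against 12%), 20 of 70 under IFNγ (28.6%, against 18.4%) and 11 of 75 under Oxali + IFNγ (14.7%, against 14.3%). These splits depend on the scale. Scaled by the median ratio over regions of all lists, higher and lower numbered 8 and 17 under Oxali, 8 and 18 under Cispl, 9 and 8 under IFNγ and 10 and 18 under Oxali + IFNγ. Over all regions, that scale gave 23.2% higher and 13.7% lower for Oxali, 22.6% and 14.5% for Cispl, 11.6% and 6.22% for IFNγ, and 24.9% and 18.8% for Oxali + IFNγ. Scaled to the strong start-site regions, they numbered 33 and 0, 48 and 0, 23 and 1, and 57 and 0. Over all regions, the latter scale gave 59.7% higher and 0.341% lower under Oxali, 69.5% and 0.138% under Cispl, 31.2% and 0.878% under IFNγ and 81.9% and 0.408% under Oxali + IFNγ.

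**Figure D4:**
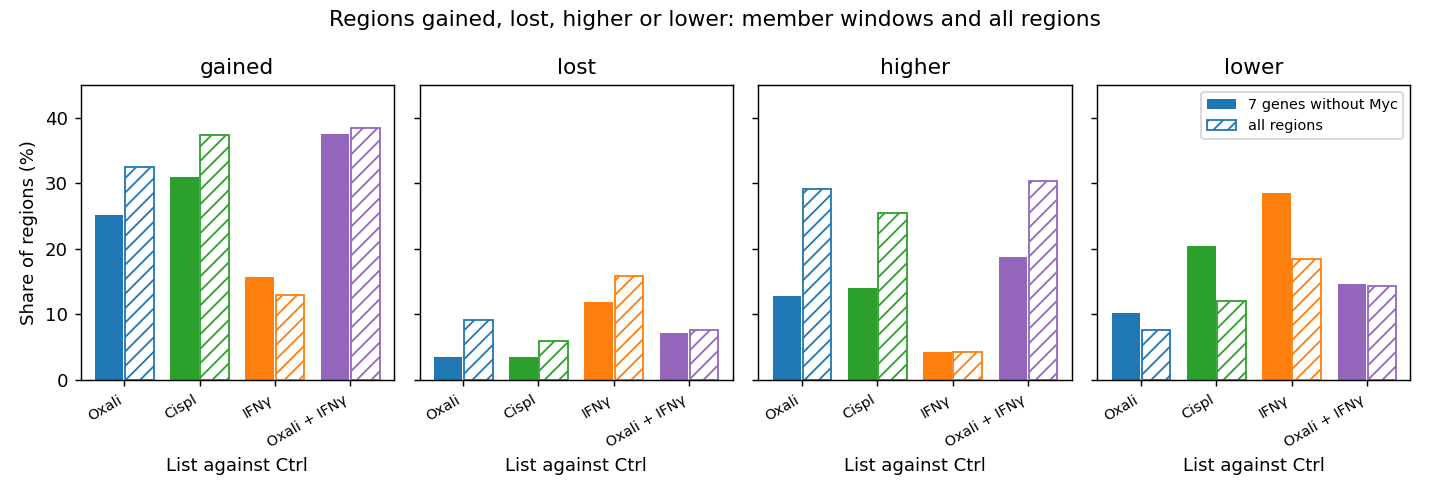
Share of regions (%) that were gained, lost, higher or lower in each treated list against Ctrl, in the windows of the 7 genes without Myc (filled bars) and over all regions of the series (hatched bars); there are no error bars because each list is 1 pooled set. The hatched bars for higher regions exceed the filled ones under Oxali, Cispl and Oxali + IFNγ, and the filled bar for lower regions exceeds the hatched one most under IFNγ.

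The median ratio over the regions of the 7 genes called in both lists was 0.972 under Oxali, 1.02 under Cispl, 0.83 under IFNγ and 0.969 under Oxali + IFNγ. Over all regions it was 1.14, 1.09, 0.854 and 1.13. In the Myc window it was 0.93, 0.737, 0.796 and 0.785. On the scale of the strong start-site regions, the medians turned to 1.37, 1.25, 1.21 and 1.63 in the Myc window and were 1.43, 1.73, 1.26 and 2.01 over the 7 genes, against 1.67, 1.86, 1.3 and 2.34 over all regions.

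Oxaliplatin and cisplatin, at the same dose and time, were compared directly as the only pair of related compounds. They share a platinum centre and differ in the groups bound to it. In the Myc window 4 of 13 regions were lower under Cispl than under Oxali, against 12.2% of all regions, and none was higher, against 6.95%. The median ratio of Cispl to Oxali was 0.731 in the Myc window, 0.98 over the 7 other genes and 0.932 over all regions. Of the 7 genes, 8 of 94 regions were higher and 8 lower under Cispl (8.51% each), 19 of 116 were gained (16.4%, against 20.2%) and 11 of 115 were lost (9.57%, against 11.2%). At the start sites the ratio of Cispl to Oxali was 0.792 (0.731 to 0.857) for Myc, 0.885 (0.83 to 0.944) for Max, 0.883 (0.82 to 0.952) for Mxd1, 0.847 (0.798 to 0.899) for Mxd4, 0.902 (0.809 to 1.01) for the first start of Mxi1, 1.06 (0.809 to 1.4) for Mycl and 0.88 (0.681 to 1.14) for Mga. The median over the strong start-site regions of the genome was 0.859, which lay within the intervals of Max, Mxd1, Mxd4, Mxi1, Mycl and Mga. At the summit next to the Myc start site the ratio of Cispl to Oxali was 0.828 (0.764 to 0.897), whose interval also holds that median. Scaled by the median ratio over regions of all lists, the Myc window still had a median of 0.771.

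The local background, the mean pileup around a region as MACS2 took it, differed strongly between the windows. Its median over called regions, as a multiple of the genome background, was 3.96 in the Myc window, 2.57 for Mxi1, 1.74 for Mxd1, 1.5 for Mycl, 1.29 for Max, 1.17 for Mxd4 and 1.0 for Mycn and Mga. At the strongest summit of a region, the highest value was 23.1, in the Myc region that covers most of the second exon, under Oxali, and outside the Myc window 22.0, at the Mxd4 start site in Ctrl. At the strongest summits of that Myc region it was 22.9 in Ctrl, 23.1 under Oxali, 17.7 under Cispl, 20.7 under IFNγ and 19.4 under Oxali + IFNγ. Because no control library was used, the strong regions themselves add to this background, and weak regions near them need a higher pileup to be called.

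**Figure D5:**
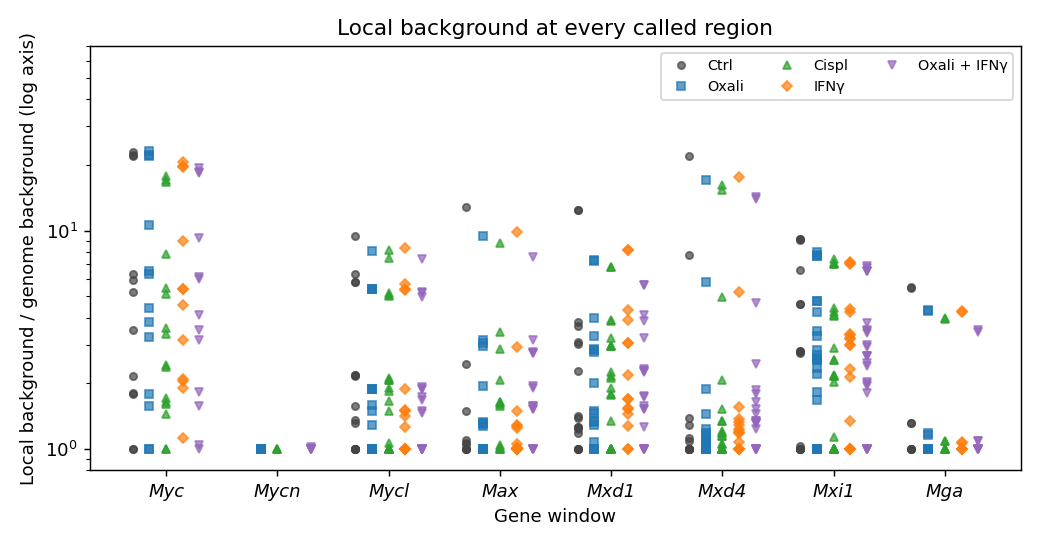
Local background at each called region as a multiple of the genome background of its list (log axis), by gene window, with 1 point per region and list and no error bars because each list is 1 pooled set. Points near 20 appear at Myc and at Mxd4, and all Mycn points lie at about 1.

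The regions were mostly distal. Of the 167, 86 summits were intergenic, 65 intronic, 6 in untranslated exons, 5 in coding exons and 5 in noncoding exons, 18 lay at a start site of a member gene and 15 at that of a neighbour alone. In all 5 lists, 79 regions were called (47.3%, against 40.4% of all regions), and 39 were called in a single list (23.4%, against 23.7%). Masked repeat made up most of the 201 bp around the summit in 25 regions (15.0%, against 17.2%).

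The E-box was present within 100 bp of the summit in 9 of 167 regions (5.39%, Wilson interval 2.86 to 9.92%), against 3.8% of all regions. Its reversed letters GTGCAC occurred in 4 (2.4%, against 5.7%). The AP-1 consensus was present in 35 (a share equal to that of all regions, 21%), all of them away from start sites, where it was found in 35 of 134 (22.4% of such regions in the series), and in 0 of 33 start-site regions (13.7% in the series). Its reversed letters ACTNAGT occurred in 10 (5.99%, against 6.85%). The CRE was present in 3 (1.8%, against 0.472%) and the GC box in 17 (10.2%, against 8.46%). A match describes letters and does not show binding.

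Start sites of 37 further genes, the other MAX-network members, MYC cofactors, regulators of MYC stability and textbook MYC targets, went the way of strong start sites in general. All 37 had a called region in Ctrl and 36 in each treated list, Mlxipl being called only in Ctrl at a pileup of 38. Of the 36, 24 were lower under Oxali, 31 under Cispl, 23 under IFNγ and 35 under Oxali + IFNγ, and none was higher. These counts are on the depth scale. Scaled by the median ratio over regions of all lists, 31, 33, 5 and 35 were lower, and under IFNγ only Huwe1, Usp28, Npm1, Cdk4 and Hspd1 then passed the limit. On the depth scale, 44.8%, 80.4%, 53.2% and 90.2% of the strong start-site regions of the genome were lower. That share is not given for the scale of the median ratio over regions of all lists, on which their median ratios were 0.614, 0.56, 0.783 and 0.438. Scaled to the strong start-site regions, the network counts of lower genes fell to 0, 0, 1 and 3.

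Among the other MAX-network genes, Mnt, a repressor that pairs with MAX, Mxd3 and Mlx were lower in at least 2 lists, as was Mlxip, a glucose-sensing partner of MLX. The Mnt region had pileups of 3342 in Ctrl, 1624 under Oxali, 1685 under Cispl, 1629 under IFNγ and 1525 under Oxali + IFNγ. Zbtb17, which encodes MIZ1, was lower only under Oxali + IFNγ, at 0.568 (0.494 to 0.651). Of the 10 cofactors, 6, 9, 5 and 10 were lower under Oxali, Cispl, IFNγ and Oxali + IFNγ, against 44.8, 80.4, 53.2 and 90.2% of strong start-site regions, and none was lower when scaled to those. The acetyltransferase genes Kat2a and Kat5 were among them in all 4 lists. Sin3a, the corepressor scaffold that MXD proteins recruit, was at 2348, 1066, 1138, 1152 and 970, a ratio of 0.389 (0.36 to 0.419) under Oxali + IFNγ. Wdr5, which anchors MYC on chromatin, was lower in all 4 as well, Ep400, Ruvbl2 and Bptf in 3, and Ruvbl1 and Sin3b in 2.

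Among genes that control MYC stability, Usp28, a deubiquitinase that stabilises MYC, had the lowest ratio in every treated list, though level with Skp2 under Cispl, with pileups of 2164 in Ctrl, 926 under Oxali, 1112 under Cispl, 552 under IFNγ and 424 under Oxali + IFNγ. Its ratio under Oxali + IFNγ was 0.184 (0.166 to 0.205), and 0.0% of the strong start-site regions of the genome were lower. Fbxw7 and Skp2, which encode ubiquitin ligase subunits, the ligase gene Huwe1 and the kinase gene Aurka were lower in all 4 lists, as was Usp28. Of the 6 stability genes, 6, 6, 5 and 6 were lower under Oxali, Cispl, IFNγ and Oxali + IFNγ, against 44.8, 80.4, 53.2 and 90.2% of strong start-site regions. Scaled to those, 0, 0, 1 and 1 were lower, and that gene was Usp28.

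Of the 15 targets, 10, 13, 9 and 14 were lower on the depth scale in the same order, against the same 44.8, 80.4, 53.2 and 90.2% of strong start-site regions. Scaled to those, 0, 0, 0 and 2 were lower, and 1 was higher under Cispl and 1 under Oxali + IFNγ. Odc1, Npm1, Cdk4, Ldha, Nme1, Cad, Tfrc and Cdkn1a were lower in all 4 lists, Ncl, Fbl and Hspd1 in 3, and Srm and Eif4e in 2. Npm1, a nucleolar chaperone gene, was at 1864 in Ctrl and 566 under Oxali + IFNγ, a ratio of 0.286 (0.26 to 0.314). Ccnd2 was the exception, with pileups of 156, 131, 165, 100 and 178 and every interval holding 1.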

How the data were processed

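ATAC-seq of Myc-CaP cells was used, 10 libraries in 5 groups of 2. Per the authors' methods and the labels, reads were trimmed with cutadapt, aligned to mm10 with Bowtie2 2.2.8, filtered with SAMtools (quality, duplicates, mitochondrial reads), pooled by group and called with MACS2 2.1.0 without a control library, with reads shifted and extended around the transposase cut site and duplicates kept at that step. Blacklisted regions were then removed. The deposited lists give per peak a score, a fold (the ratio of pileup plus 1 to local background plus 1), a −log10 p-value and a −log10 q-value. The lists reach a −log10 p of 2.0, but the Cispl list ends at 2.99 and holds no weaker region.

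For each peak, the pileup and local background implied by its deposited fold and p-value were recovered for 99.9993 to 100.0% of peaks in a list, using Python 3.11.15, numpy 2.4.6, pandas 2.3.3 and scipy 1.17.1, checked on simulated data. Figures were drawn with matplotlib 3.10.9. Intervals were merged over the 5 lists at 1 bp of overlap, and each list was represented by its highest summit in the region. Summits within 50 bp of the highest Ctrl summit were compared as an alternative. Ratio intervals are exact (Clopper-Pearson), and shares have Wilson intervals at 95%. PCR reads are not independent molecules, so intervals cover counting error only. With 1 pooled list per group, no test was made. Alternatives varied the thresholds, the scale and the window.

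The members, gene lists and rules were chosen with earlier results of these data known. Named regions are, for each gene, its start-site regions, the 2 strongest gained, the strongest lost, and those with the highest and lowest ratio among regions with a level of at least 3 in one list. Other regions named were chosen after their values were seen. Network genes are named where they differed by 1.5-fold in at least 2 lists. Zbtb17, Ccnd2 and Mlxipl fall outside this rule and were named after their values were seen. Sequence came from the RefSeq GRCm38 assembly, the assembly of mm10. Some marker and network genes are not reported here.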

Additional observations from a re-analysis of the deposited data

How the results depend on the processing

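No paired analysis was possible because the 2 libraries of each group were pooled before calling, which also means that no fit without a single library was run. All counts here are regions of the 7 genes without Myc against Ctrl unless stated otherwise. With windows of 5 kb, gained regions fell to 6 under Oxali, 6 under Cispl, 3 under IFNγ and 6 under Oxali + IFNγ, lost regions to 1, 1, 2 and 2, and higher regions to 2, 0, 1 and 2. Lower regions fell to 8 under Cispl, 12 under IFNγ and 7 under Oxali + IFNγ. With a fold of 2, higher regions were 4, 5, 0 and 5 and lower regions 0, 3, 3 and 6, in the same order. At a q-value of at most 1e-05, gained regions under IFNγ were 7, and lost regions were 1 under Cispl, 6 under IFNγ and 3 under Oxali + IFNγ. With all deposited regions, lost regions were 5 under Oxali and 5 under Cispl, and counting as shared only an overlap of 50% of the region gave 5 lost under Oxali. In the Myc window, a fold of 2 left 0 lower regions under Oxali, Cispl and Oxali + IFNγ and 0 and 1 higher under Cispl and Oxali. Windows of 5 kb there left 2 lower under Cispl, 1 under Oxali + IFNγ, 1 higher under Oxali, 3 and 1 gained under Cispl and IFNγ, and 0 lost in all 4 lists. The mean over summits left 0 and 1 higher under Cispl and Oxali, and scaling by the median ratio over regions of all lists left 1 higher under Oxali. The pileup minus local background gave 2 lower under IFNγ and 2 higher under Oxali + IFNγ, and a q-value of at most 1e-05 left 1 gained and 1 lost under IFNγ. Compared at the same summit, an alternative chosen after seeing the data, lower Myc regions under Oxali + IFNγ rose from 3 to 5, and the counts of the 7 genes stayed within 1.5 times.

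Scaled by the median ratio over regions of all lists, lower regions were 17 under Oxali, 8 under IFNγ and 18 under Oxali + IFNγ, higher regions under IFNγ were 9, and 5 network genes were lower under IFNγ. The mean over summits and the pileup minus local background each gave 5 higher regions under IFNγ. Scaling to the strong start-site regions, chosen after seeing the data, gave 33, 48, 23 and 57 higher and 0, 0, 1 and 0 lower regions, and 0, 0, 1 and 3 lower network genes, with 1 higher under Cispl and 1 under Oxali + IFNγ. The lowest local background was 1.0 times that of the genome in the windows of Myc, Mycl, Max, Mxd1, Mxd4 and Mxi1. Within 50 bp of the summit the E-box was present in 2.4%, the CRE in 0.599%, the GC box in 5.99% and the reversed E-box in 0.0% of regions. Depth limits weak regions most in the IFNγ list, which had 79.3% of the depth of Ctrl, and no spread between cultures is known. Apart from the Myc window, the other 67 values recomputed under an alternative stayed within 1.5 times of the reported count or within its interval, and the cause of the changes was not tested.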
